A study of Rattus norvegicus with 27 samples.

Results

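Of the 127106 stretches of 500 bp that held at least 3 well-covered CpGs in the deeper of 2 experiments, 14734 were isolated, held few covered CpGs and were highly methylated. They were chosen by their own measured level. The second deposited table was divided into fixed bins of 500 bp, and CpGs with at least 10 reads in each of its 12 rats were kept (common sites). A bin was taken when it lay on an autosome, held 3 to 9 common sites, had a mean level over 80% and lay more than 4 bins (2 kb) from any bin of 10 or more sites with a level under 10%. The level of a bin in a rat is the methylated (C) reads as a percentage of all reads over its sites. These bins were 17.3% of the 85028 isolated autosomal bins with 3 to 9 sites and 11.9% of the 123616 autosomal bins with 3 or more sites. Another 295 bins with 3 to 9 sites passed 80% but lay closer to an unmethylated CpG-rich bin.

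In mammalian genomes most CpGs outside CpG islands carry a methyl group, which the maintenance methyltransferase Dnmt1 copies after each DNA replication. The de novo methyltransferases Dnmt3a and Dnmt3b set new methylation, and the Tet enzymes oxidise methylcytosine as a step towards its removal. CpG-poor DNA between genes and inside gene bodies is the usual place of high methylation, whereas CpG islands at gene starts are mostly kept free of it. Reduced representation bisulfite sequencing (RRBS) cuts DNA with MspI, an enzyme that recognises CCGG, and sequences fragments of a chosen size. CpG-poor DNA is therefore seen as short stretches at such fragments and not throughout.

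The tissue was the renal outer medulla of Dahl salt-sensitive (SS) rats, a strain that develops hypertension on high salt. In the first experiment, SS rats of the MCW colony ate the purified AIN-76A diet with 0.4% NaCl to 8 weeks of age (MCW_LS, n = 3) or, from the age of 6 weeks, 14 days of the same diet with 4% NaCl (MCW_HS, n = 4). SS rats of the CRL colony ate the non-purified 5L2F diet with 0.75% NaCl to 8 weeks of age (CRL_LS, n = 4) or the 4% NaCl AIN-76A diet on the schedule of MCW_HS (CRL_HS, n = 4), so salt and diet type changed together in CRL rats and cannot be told apart there. In the second experiment, MCW SS rats had intra-renal GapmeRs (antisense oligonucleotides): a scrambled one at 4 mg/kg with 4% NaCl for 7 days (HS_SCR, n = 4), or GapmeRs against Dnmt3a and Tet3 at 2 mg/kg each with 4% NaCl for 7, the unit of which is not given (HS_DT, n = 4). PRE_LS rats (n = 4) were operated on alike and sampled at 0.4% NaCl before that treatment. Expression is not analysed here, so neither the knockdown nor the cell makeup of the tissue could be checked against marker genes. A level of a bulk sample does not tell fewer methylated cells from less methylation per cell.

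The libraries of the first table held 35040331 to 95102303 reads over CpGs and those of the second 174400859 to 257658964. Over the selected bins the median depth per site was 23.8 to 57.8 reads in the first table and 57.0 to 85.6 in the second. The first table had 3 or more common sites in 4215 of the 14734 bins (28.6%), 1 or 2 in 1086 and none in 9433. Results from the first table therefore cover only the 4215 bins. Of the bins in the second table, 624 (4.24%) had read counts equal to those of another bin in every rat, beside 2.91% of autosomal bins with 3 or more sites, and such bins are not independent. Each library is 1 rat.

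The selected bins were mostly just above the 80% line. The median level was 84.5%, 8012 bins were at or under 85%, 2572 were over 90%, 688 reached 95% and 2 stood at 100% in every rat. The 3 members nearest the line, chr9:37016001-37016500, chr1:204660001-204660500 and chr10:105063501-105064000, had 80.001, 80.001 and 80.002%. The 3 eligible bins on its other side, chr19:68565001-68565500, chr8:24692501-24693000 and chr7:3124001-3124500, came to 80% or less, the latter 2 to 79.999%. Single rats ranged from 71.4 to 93.0% in the chromosome 9 member and from 73.9 to 89.1% in the chromosome 8 bin left out, so the ranges on both sides of the line overlapped. Over 80% was reached in each of the 12 rats by 7812 bins (53.0%).

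All coordinates are rn5. Members made up from 9.17% of the bins with 3 or more sites on chromosome 10 to 14.5% on chromosome 13, and their mean level per chromosome lay between 85.3 and 86.1%. Genes, exons and sequence at the bins are not analysed here. The common sites of a member lay a median of 16.0 bp apart within a span of 82.0 bp, so few covered sites per bin does not mean widely spaced ones, and the CpG density of the bins is not analysed here. Of the members, 3163 had 3 sites, 3336 had 5 and 720 had 9. The share of isolated bins that passed 80% was 10.7% at 3 sites, 12.7% at 4 and 24.4 to 27.1% at 5 to 9 sites.

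Bins near a member were more methylated than autosomal bins at large. Bins directly next to a member with 3 or more sites (3985 of them) had a mean level of 72.9%. Of the first and last sites of members, 3744 had the next common site outside the bin within 50 bp. An adjacent bin can therefore hold the rest of the same group of CpGs, and such bins were not set apart here. Of the 3985 adjacent bins, 32.7% were over 80%, beside 14.0% of all autosomal bins and 17.3% of the isolated bins with 3 to 9 sites. At 2 kb the mean was 64.6% and at 10 kb 46.4%, close to the 47.5% of all autosomal bins. The fall from 4 kb on is measured without the rule, whereas the absence of unmethylated CpG-rich bins within 2 kb is part of it. All autosomal bins include such CpG-rich bins, so the higher levels within 2 kb are partly set by the rule. Of the members, 13761 stood alone, 463 pairs and 13 triples were adjacent, and 2 runs had 4 bins. Only 3985 adjacent bins held 3 or more common sites. A member that stands alone therefore need not lie next to less methylated DNA.

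Inside the bins the methylation was not even. The first and the last common site of a bin, called its outer sites here, averaged 64.8% ± 0.233 (SD over 12 rats, 29468 sites), against 91.6% ± 0.223 at the 46773 interior sites. Under 50% were 32.5% of the outer and 1.85% of the interior sites. In bins with 5 sites the means in order of coordinate were 58.5, 93.2, 93.6, 93.2 and 56.9%. In bins with 9 sites the outer means were 58.8 and 53.7% and the middle site had 88.0%. The interior is thus a flat plateau and the step lies at the last site on either side. The level of the interior is partly set by the rule, since the bin had to pass 80%.

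**Figure D1:**
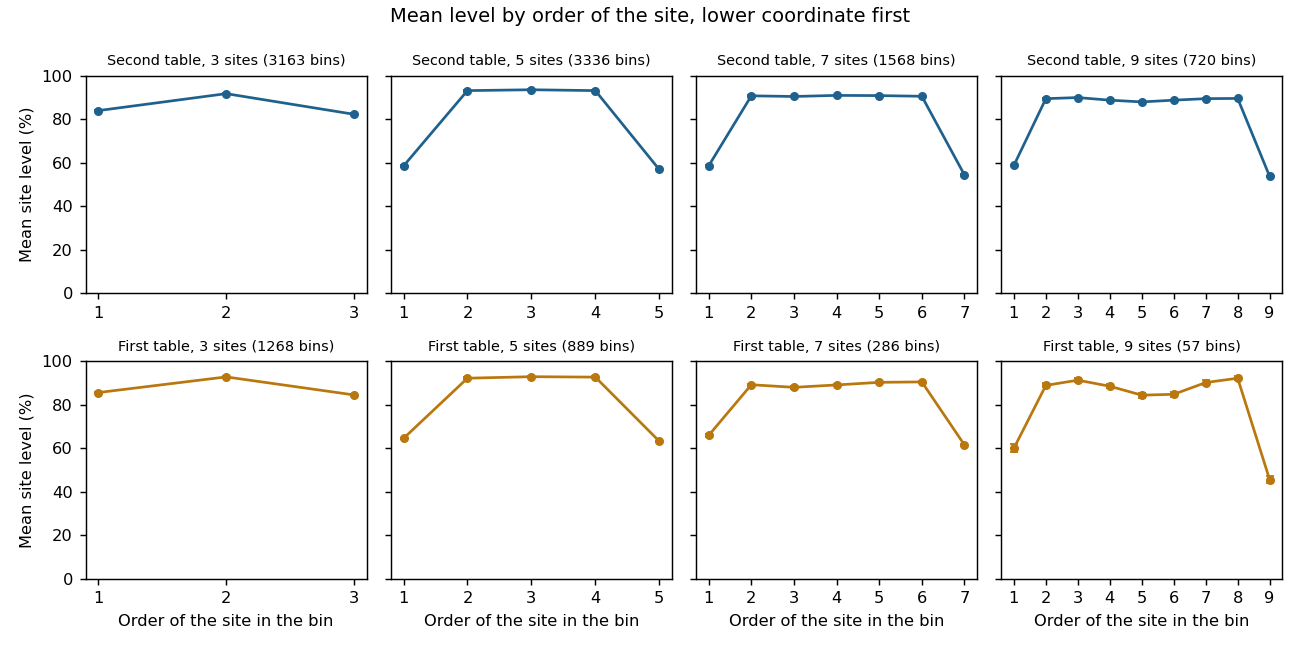
Mean methylation level (y axis, percent) by order of the site in the bin, lower coordinate first (x axis), for member bins with 3, 5, 7 and 9 sites in the second table (top) and the first table (bottom). Points are means over bins and rats and bars are SDs over the rats of the table, mostly smaller than the points; in bins of 5 sites the outer means are 58.5 and 56.9% and the interior means 93.2 to 93.6%.

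The first experiment, whose rats played no part in choosing the bins, had the same shape. Its outer sites averaged 72.4% ± 0.273 (SD over 15 rats, 8430 sites) and its interior sites 91.8% ± 0.312 (10890 sites), and 26.2% and 2.33% of them were under 50%. Sites that were common in both tables and outer in the second had 63.5% ± 0.182 there and 63.4% ± 0.243 in the first (4971 sites). The interior sites common to both had 91.5% ± 0.196 and 91.2% ± 0.313 (13896 sites). Site by site the levels of the 2 tables had a Pearson r of 0.969 over these outer sites and 0.975 over outer and interior sites together (18867 sites), as a description over sites that share libraries. Sites that were low in one experiment tended to be low in the other.

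The outer sites were spread over the whole range of levels. Of those in the second table, 45.1% were over 80%, 33.9% lay between 30 and 70% and 5.91% were under 5%. The shares in the first table were 55.4%, 36.8% and 1.85%. Of the interior sites 3.18% and 4.03% lay between 30 and 70% in the second and first table.

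**Figure D2:**
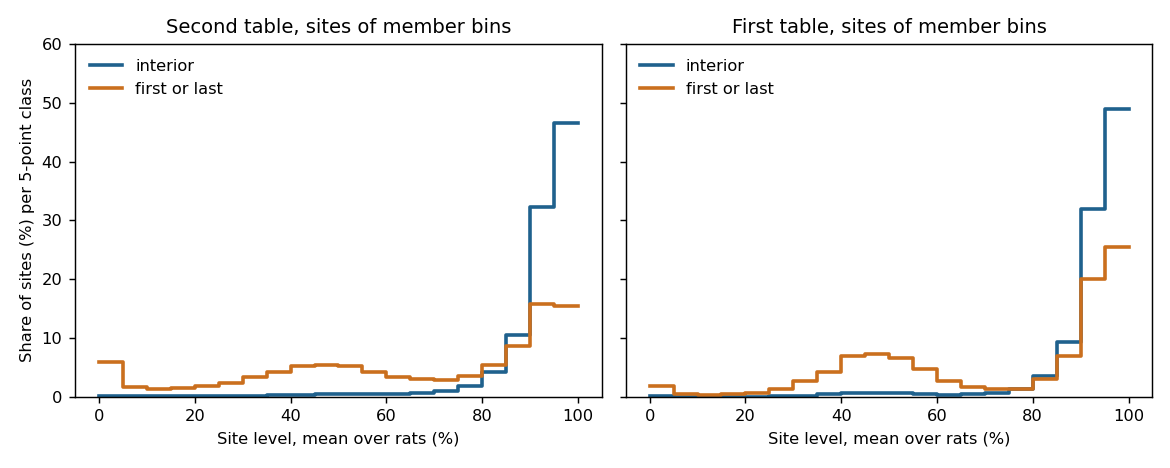
Share of sites (y axis, percent per class of 5 points) by their mean level over rats (x axis, percent) for interior sites and for the first or last sites of member bins, second table left and first table right. Interior sites pile up over 90%, whereas outer sites have a peak over 90%, a broad peak near 50% and a small one under 5%.

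Low levels at the outer sites went together with low read numbers. In the deeper experiment 15597 of the 29468 outer sites (52.9%) had between 0.4 and 0.6 times the reads of the next site inward, and their mean level was 50.4% ± 0.197 (SD over 12 rats), with 93.4% at that next site. The 11202 outer sites (38.0%) with 0.9 to 1.1 times the reads of their neighbour had 83.7% ± 0.277, against 91.6% at the neighbour. The same classes had, in the first table, 49.2% ± 0.256 (3218 sites) and 91.6% ± 0.298 (4381 sites). Of the outer sites with 0.4 to 0.6 times the reads, 52.7% lay between 30 and 70% in the second table and 78.0% in the first, against 8.44% and 3.13% of those with about equal reads. The bin chr10:48374001-48374500 shows this closely. Its outer sites 48374018 and 48374101 had 43.8% and 45.7% with 53 to 100 reads per rat, and the 4 sites between them had 91.0 to 95.7% with 106 to 200 reads.

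The distance to the next common site outside the bin also separated the outer sites. Where that site was 50 bp or less away (3744 sites), so that the bin border cut through a group of CpGs, the mean level was 90.5% ± 0.336 and 1.44% were under 50%. Where it was over 200 bp away (23892 sites) the mean level was 59.2% ± 0.217 and 39.4% were under 50%. In the first table these means were 91.4% ± 0.360 (709 sites) and 70.6% ± 0.273 (7569 sites). The low level thus stood at the ends of groups of covered CpGs and not at bin borders. Whether these outer CpGs lie in the CCGG sites at which fragments end, and the part of fragment ends in their level, was not tested, because no rn5 genome was used here.

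**Figure D3:**
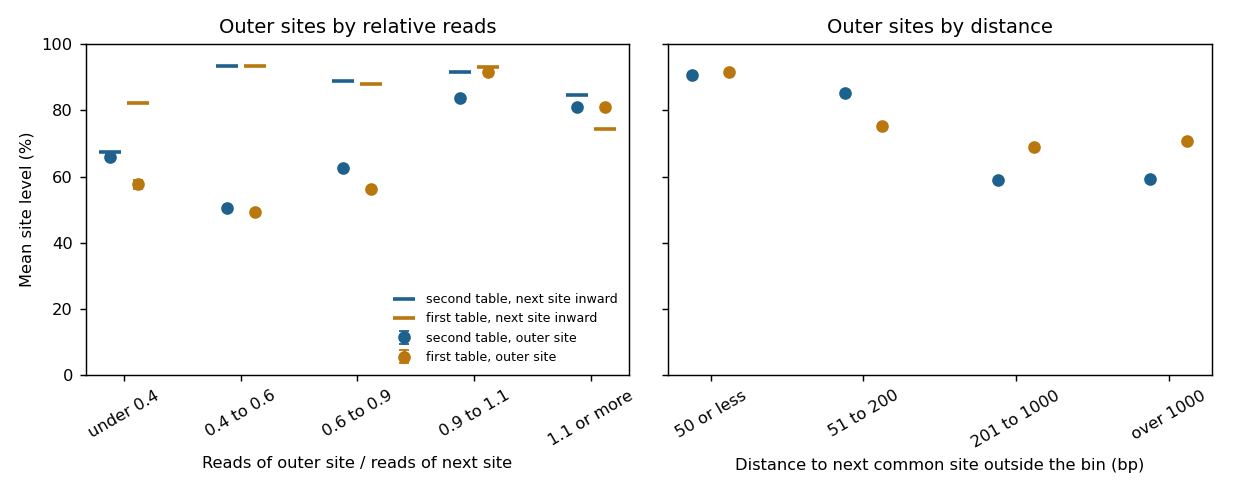
Mean level of the outer sites of member bins (y axis, percent) by their reads relative to the next site inward (left) and by the distance in bp to the next common site outside the bin (right). Circles are outer sites with SDs over rats as bars, smaller than most circles, and dashes are the next site inward; outer sites with 0.4 to 0.6 times the reads have 50.4% and 49.2% in the second and first table.

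The level of the outer sites also differed with the span between them. In the second table the mean of the outer sites fell from 81.6% in bins spanning less than 30 bp (1115 bins) to 56.1% at 110 to 149 bp (2846 bins), while the interior went from 92.8% to 91.7%. At 250 bp or more (371 bins) both kinds of site lay closer, with 72.7% at the outer sites and 82.4% in the interior. In the first table the outer mean went from 84.7% under 30 bp (706 bins) to 61.9% at 90 to 109 bp (179 bins) and 76.1% at 250 bp or more (67 bins). A single outer site under 50% was found in 53.3% of the members, a low site at both ends in 5.88% and neither in 40.8%. These shares are partly set by the rule, since a bin low at both ends passes 80% less easily. With 2 such low-read outer sites (0.4 to 0.6 times the reads) a member had a mean level of 83.5% and 5.77 sites on average (5092 bins). With none (4229 bins) it had 4.80 sites, and outer sites at 79.7% in place of 47.4%.

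The outer sites enter the level by which members were chosen. Members at 80 to 85% had interior and outer means of 91.0% and 56.3%, and 63.0% of their outer sites had 0.4 to 0.6 times the reads. Members over 95% had 96.8% and 95.8%, and 21.7% of such outer sites. The isolated bins of 3 to 9 sites with a level of 20 to 80% (63654 bins) held more of these sites, 67.9% of the outer sites beside 52.9% in the members. Among those 63654 bins, 28970 (45.5%) had an interior level over 80%. At their outer sites with 0.4 to 0.6 times the reads the level was 39.1% ± 0.320, and at those with about equal reads 54.1% ± 0.423. In CpG-rich methylated bins (10 or more sites, over 80%, 2284 bins) these levels were 47.0% ± 0.242 and 70.2% ± 0.252, beside 50.4% and 83.7% in the members.

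Most members held a low site, and in most of these it was an outer one. Of the members 9243 (62.7%) held at least 1 site under 50% and 3187 (21.6%) at least 1 under 20%. The shares were 93.8% and 63.9% in all autosomal bins with 3 or more sites. In the CpG-rich methylated bins, which hold more sites each, they were 94.4% and 35.6%. Members had to pass a mean of 80%, so the rule limits the low sites they can hold. Of the 10453 sites under 50% in the second table, 9589 were outer and 864 interior ones. The median range between the highest and lowest site of a member was 54.8 points. The largest contrast was in chr5:148007501-148008000. Its site 148007585, an interior one, had 0% in each of the 12 rats at 42 to 70 reads, and its other sites had 97.9 to 100%. In chr13:84671501-84672000 the last of 4 sites, 84671674, had 0.417% (0 to 5.00% per rat), with 97.5 to 100% at the others. The bin chr15:32200501-32201000 held the mirror image, with 0.417% at its first site 32200858 and 97.4 to 100% at the others. The read ranges of the chromosome 13 and 15 bins were nearly equal, so these may share reads from near-identical copies and are uncertain. No sequence was compared at the 0% sites, so whether each is a CpG in these rats was not tested.

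The bins with the most sites and reads held such sites too. In chr14:95637501-95638000 (9 sites, 7301 to 12829 reads per rat) the site 95637631 had 17.0% and those after it 80.1 to 93.0%. In chr15:25609501-25610000 the site 25609626 had 16.9% and those after it again 80.1 to 93.0%. From these sites on, the read ranges of both bins were nearly equal, so they are uncertain in the same way. In chr1:108569001-108569500 (9 sites, 13469 to 20761 reads) the site 108569249 had 2.77% and the others 74.4 to 99.5%. PRE_LS rats had 90.4% ± 0.884, HS_SCR rats 90.2% ± 0.989 and HS_DT rats 90.4% ± 0.0993 (SD, n = 4 each) there. In the first table, where it had 4 common sites, the 4 group means were 90.9 to 91.0%.

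The 2 runs of 4 members are described with 1 of the 13 runs of 3, the first in order of chromosome and position. On chromosome 1, 4 adjacent bins from 89718001 to 89720000 had mean levels of 81.0, 87.3, 81.2 and 92.7%. Within them single sites fell to 22.1% (89718112), 35.1% (89718402) and 45.1% (89718532), next to sites at 98.3% (89718097), 95.8% (89718424) and 95.1% (89718508). The run of 3 from chr1:88884501 to 88886000 had 87.6, 82.9 and 85.1%, with low sites of 29.5% at 88884879 and 33.8% at 88885034. The run from chr16:62436501 to 62438500 had 87.7, 84.9, 87.7 and 84.9%. The bins from 62437001 and 62438001 had the same levels and reads at each site, and those from 62436501 and 62437501 nearly the same, so the bins of that run are not independent. The chromosome 1 runs had equal read ranges across bin borders. Sites 89718479 and 89718508 each had 90 to 136 reads per rat, and sites 88884999 and 88885012 each had 90 to 162. Bins of these runs may therefore share reads as well.

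Rats mostly differed by a few points at these bins, as in other classes. The median SD of a member over the 12 rats of the second table was 2.17 points, and 95% of members had an SD of 5.78 points or less. The Pearson dispersion is 1 where rats differ by read counting alone and all counts are independent. It had a median of 1.51 over the members in the second table (quartiles 0.852 and 2.55) and of 1.60 in the first (quartiles 0.883 and 2.58). Sites of a bin can share reads: the interior sites of chr8:117200501-117201000 each had 90 to 158 reads per rat. A read counted at more than 1 site raises the dispersion, so values above 1 need not mean differences between rats beyond counting. Over all autosomal bins with 3 or more sites the medians were 1.81 and 1.85. In the isolated bins of 20 to 80% they were 1.58 and 1.41, so the members were below these bins in the second table and above them in the first. In the CpG-rich methylated bins they were 1.90 and 1.56.

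Among members with 100 or more reads in every rat the 3 with the largest SD each held a rat at 65.3% or less. In chr5:72522501-72523000 HS_DT rats had 91.2, 94.8, 83.3 and 60.4%, and the other 8 rats lay between 80.4 and 95.2%. In chr7:24908501-24909000 HS_SCR rats had 98.3, 87.5, 87.3 and 65.3%, and PRE_LS rats had 71.6 to 85.4%. In chr4:187097001-187097500 HS_SCR rats had 90.6, 88.2, 80.3 and 64.5%, and PRE_LS rats had 68.0 to 81.5%. HS_SCR replicate 4 was the low rat in the latter bins and HS_DT replicate 4 in the former. These bins were picked for their spread, so no test was made of it.

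Most members were also highly methylated in the first table. Of the 4215 bins with 3 or more common sites there, 3655 (86.7%) had a mean level over 80%, 85 were under 70% and the lowest stood at 52.0%. Low-salt MCW rats had a mean of 2.06 points more in the first table (MCW_LS) than in the second (PRE_LS), and 59.7% of the bins differed by less than 5 points. Across bins Pearson's r between these groups was 0.381, over bins that the rule had limited to a mean over 80% in the 12 rats of the second table. The 2 tables held the same number of common sites in 43.3% of these bins, 4.58 against 5.66 sites on average, and at shared sites they had nearly equal means, as given above. No test was made across the tables.

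The 3 bins that differed most between the tables also differed in their sites. In chr6:131628501-131629000 (3 sites in the first table, 4 in the second) MCW_LS rats had 53.8, 61.6 and 53.6%, and PRE_LS rats 89.6, 88.6, 93.2 and 93.0%. In chr8:116956001-116956500 (3 and 4 sites) MCW_LS rats had 55.8, 47.5 and 53.6% and PRE_LS rats 88.0, 85.4, 85.2 and 85.7%. In chr10:13788501-13789000 (3 and 9 sites) they had 57.5, 52.1 and 54.2% against 82.4, 80.7, 86.2 and 80.7%. In the latter bin the second table had 3 sites of 32.3 to 68.7% among 6 of 90.5 to 95.5%. Over the 3 bins the group means were 50.5 to 62.4% in the first table and at most 94.0% in the second, with none below that of PRE_LS at the chromosome 10 bin.

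The mean level over the members did not separate the groups in either experiment. In the first table it was 86.35, 87.34 and 86.66% in the 3 MCW_LS rats and 86.49, 86.67, 87.09 and 86.81% in the MCW_HS rats. The CRL_LS rats had 86.55, 86.80, 87.17 and 87.02% and the CRL_HS rats 86.86, 86.70, 87.19 and 86.84%. In the second table PRE_LS rats had 85.80, 85.61, 85.59 and 85.80%, HS_SCR rats 85.92, 85.69, 85.69 and 85.01%, and HS_DT rats 85.82, 85.61, 85.42 and 85.61%. All compared groups overlapped. HS_SCR replicate 4 was the lowest rat of the second table, and it was also the lowest at the outer sites (64.25%) and the interior sites (91.00%).

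**Figure D4:**
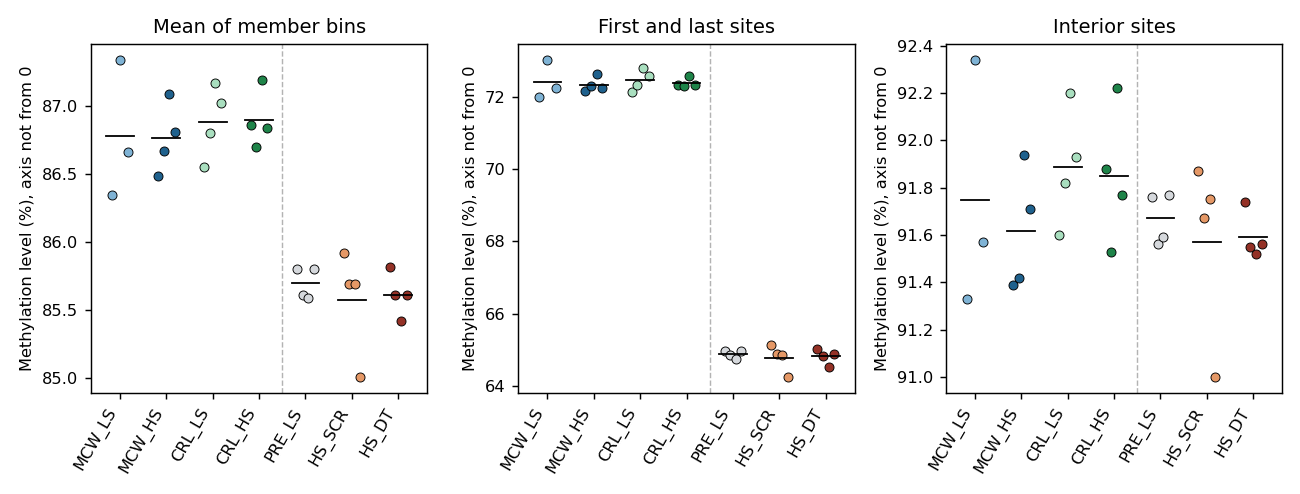
Mean methylation level per rat (points, y axis in percent, axes not from 0) with group means (lines) for the 7 groups (x axis), over member bins (left), their first and last sites (middle) and their interior sites (right). The dashed line parts the first table from the second; groups overlap within each table, and HS_SCR replicate 4 is the lowest rat of the second table in all 3 panels.

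The group means lay close together. MCW_HS minus MCW_LS was -0.0191 points (SE 0.317), with the high-salt rat above in 7 of 12 pairs of rats, and CRL_HS minus CRL_LS was 0.0107 (SE 0.171, 9 of 16 pairs). MCW minus CRL was -0.100 on low salt (SE 0.321) and -0.130 on high salt (SE 0.165). HS_SCR minus PRE_LS was -0.124 (SE 0.206), HS_DT minus HS_SCR 0.0376 (SE 0.213) and HS_DT minus PRE_LS -0.0865 (SE 0.0998). Without HS_SCR replicate 4, HS_SCR minus PRE_LS was 0.0658 and HS_DT minus HS_SCR -0.152, so 1 rat turned both signs. The MCW salt difference became 0.258 without MCW_LS replicate 2, 0.0729 without MCW_HS replicate 1 and 0.0126 without MCW_HS replicate 2. The CRL salt difference became -0.0878 without CRL_HS replicate 3, -0.102 without CRL_LS replicate 1 and -0.0163 without CRL_LS replicate 2. MCW_LS minus CRL_LS became 0.116 without MCW_LS replicate 1, and HS_DT minus HS_SCR -0.0291 without HS_DT replicate 1. Outer and interior sites taken apart gave differences of -0.236 to 0.0413 points, and their groups overlapped as well.

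In the isolated bins of 20 to 80% MCW_HS minus MCW_LS was 0.671 points (SE 0.182), with the high-salt rat above in 12 of 12 pairs, and CRL_HS minus CRL_LS was 0.620 (SE 0.259, 14 of 16 pairs). Over all autosomal bins the MCW difference was 0.347 points, and CRL rats had 36.4% on low and 36.7% on high salt. In the bins of 10 or more sites over 80% the differences were 0.101 points in MCW rats (SE 0.259) and 0.0488 in CRL rats (SE 0.247), with overlapping groups as in the members. Whether the members differ from these bins in their salt difference was not tested. In the second table HS_SCR minus PRE_LS was -0.0537 points in the isolated bins of 20 to 80%.

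By reads of the whole table, the deepest rat of each group had the highest level over the members in 4 of 4 groups of the first experiment and the lowest in 3 of 3 groups of the second. This was seen after the values were known. HS_SCR replicates 4 and 1 had nearly equal reads (234553496 and 233006127) and the lowest and highest level of their group, and the shallowest rats of CRL_LS and CRL_HS had the second highest. By reads over the members, the deepest HS_SCR rat was replicate 3, at 85.69%. The rat with the fewest such reads had 85.80% in PRE_LS, 85.92% in HS_SCR and 85.82% in HS_DT. Each was the highest or equal highest of its group. In the first table the rat with the fewest was the lowest in MCW_HS (86.49%) and neither highest nor lowest in the other groups. The part of depth in the group differences was not tested. Rats with neighbouring animal numbers allowed a comparison within ranges. MCW_HS minus MCW_LS was -0.266 points within numbers 1155 to 1184 (2 against 2 rats) and 0.289 within 1245 to 1249 (2 against 1). HS_DT minus HS_SCR was -0.126 within 781 to 785 (3 against 2) and 0.0714 within 862 to 871 (1 against 2). HS_SCR minus PRE_LS was -0.353 within 858 to 871 (2 against 4). The labels do not say what the order of the numbers stands for.

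No member passed the test in any of the 7 comparisons or in the salt-by-colony interaction. The test was a quasi-binomial regression on the counts of each bin with limma-moderated dispersion, over all bins with a level of 5 to 95%, and a call is a Benjamini-Hochberg adjusted p below 0.05 over all bins tested. In each of these 8 tests the calls were 0 of all bins (0%) and 0 of the members. The following counts at an unadjusted p below 0.05 are given beside the share of all tested bins that met it, and they are no calls.

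For high against low salt in MCW rats 3584 members were tested. At an unadjusted p below 0.05, 66 were higher (1.84%, beside 3.96% of all bins) and 88 lower (2.46%, beside 2.26%); whether these shares differ was not tested. The median difference was -0.0235 points over the members and 0.342 over all bins tested. Limma on log ratios had 179 members at that p and no call. In chr8:117200501-117201000 (4 sites in the first table) MCW_LS rats had 77.5, 90.2 and 84.9% and MCW_HS rats 93.0, 94.5, 96.6 and 92.5%. The difference was 9.98 points (adjusted p = 0.716, limma-moderated F test). In chr14:29319501-29320000 the low-salt rats averaged 97.3% ± 0.486 and the high-salt rats 89.4% ± 2.88 (SD, n = 3 and 4), all of them lower, a difference of -7.93 points (adjusted p = 0.630). In chr13:2197501-2198000 the low-salt rats had 86.9, 86.3 and 88.6% and the high-salt rats averaged 91.6% ± 1.75. In chr2:118319001-118319500 the low-salt rats averaged 97.4% ± 1.16 and the high-salt rats had 87.9, 82.1, 91.2 and 88.9%.

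For high against low salt in CRL rats 95 of 3552 members were higher (2.67%, beside 4.14% of all bins) and 71 lower (2.00%, beside 1.78%) at an unadjusted p below 0.05. The median difference was -0.0348 points over the members and 0.370 over all bins. By limma on log ratios 208 members were at that p and none was called. In chr13:17000501-17001000 CRL_LS rats had 84.4, 82.9, 81.2 and 93.3% and CRL_HS rats 100, 97.8, 97.9 and 93.8%, so that 1 low-salt rat came close to the high-salt rats. The difference was 11.9 points (adjusted p = 0.626). In chr2:108755501-108756000 low-salt rats had 95.7, 95.3, 94.9 and 97.1% and high-salt rats 90.3, 91.4, 91.4 and 89.7%, a difference of -5.03 points (adjusted p = 0.626). The bin chr10:48374001-48374500 stood at 88.6% ± 4.84 and 97.9% ± 1.41 on low and high salt, and chr10:83589501-83590000 stood at 97.8% ± 1.95 and 89.1% ± 1.42 (SD, n = 4 each).

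For MCW against CRL on low salt 60 of 3551 members were higher in MCW (1.69%, beside 3.21% of all bins) and 58 lower (1.63%, beside 2.41%). With limma on log ratios 169 members were at an unadjusted p below 0.05 and none was called. Without MCW_LS replicate 3, 135 of 27955 bins were called and 0 of 3533 members (smallest adjusted p of a member 0.0926, limma-moderated F test). Whether these shares differ was not tested. In chr18:70436501-70437000 (6 sites) MCW_LS rats had 88.5, 85.7 and 83.2% and CRL_LS rats 96.6, 94.1, 96.9 and 97.4%, without overlap (means 85.8% ± 2.62 and 96.3% ± 1.46, adjusted p = 0.626). In chr10:70006501-70007000 MCW_LS rats had 97.6, 97.6 and 98.1% and CRL_LS rats 91.1, 86.7, 93.7 and 93.9%, a difference of 6.46 points (adjusted p = 0.678). The bins chr19:54946501-54947000 (88.5% ± 2.35 in MCW_LS, 81.5% ± 2.65 in CRL_LS) and chr15:109713501-109714000 (87.6% ± 4.07 and 97.2% ± 1.09) followed. Diet type and NaCl content (0.4% in MCW_LS, 0.75% in CRL_LS) differed between these colonies as well, so colony, diet type and salt cannot be told apart.

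For MCW against CRL on high salt, where both ate the same diet, 63 of 3592 members were higher in MCW (1.75%, beside 3.31% of all bins) and 88 lower (2.45%, beside 2.64%). In the limma fit on log ratios 181 members met that p and none was called. In chr7:116284001-116284500 MCW_HS rats had 76.1, 74.5, 69.6 and 69.9% and CRL_HS rats 63.1, 66.1, 57.6 and 62.2%. The difference was 10.3 points (adjusted p = 0.663), and with 12 common sites in the first table this bin lay below 80% there. In chr15:104588001-104588500 (389 to 897 reads per rat) MCW_HS rats had 83.6, 86.3, 86.2 and 85.8% and CRL_HS rats 89.2, 90.3, 91.9 and 87.9%, a difference of -4.32 points (adjusted p = 0.678). The bins chr10:103581501-103582000 (94.5% ± 1.09 and 87.2% ± 4.33 in MCW_HS and CRL_HS) and chr3:82426001-82426500 (91.3% ± 1.83 in MCW_HS, with CRL_HS rats at 94.4, 97.3, 100 and 98.2%) were the other bins named for this comparison.

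The salt difference of MCW rats minus that of CRL rats was tested as an interaction over 3582 members. At an unadjusted p below 0.05, 68 were more positive in MCW (1.90%, beside 2.46% of all bins) and 86 more negative (2.40%, beside 2.88%). The median over the members was 0.0195 points and over all bins -0.0712. Limma on log ratios had 150 members at that p and no call.

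For HS_SCR against PRE_LS 14002 members were tested, and at an unadjusted p below 0.05, 239 were higher (1.71%, beside 2.28% of all bins) and 342 lower (2.44%, beside 2.50%). The median difference was -0.0908 points over the members and -0.0584 over all bins. Limma on log ratios had 684 members at an unadjusted p below 0.05 and no call. In chr11:74450501-74451000 (3 sites) PRE_LS rats had 71.4, 78.6, 77.0 and 77.6% and HS_SCR rats 89.7, 97.8, 89.8 and 88.6%, 15.3 points higher and without overlap (adjusted p = 1.000). In chr4:230661501-230662000 PRE_LS rats had 95.5, 97.6, 99.4 and 97.3% and HS_SCR rats 86.7 to 93.8%, a difference of -7.24 points (adjusted p = 1.000). The bin chr12:45947501-45948000 stood at 80.9% ± 2.31 in PRE_LS, with HS_SCR rats at 94.9, 90.5, 93.3 and 91.4%, and chr17:21114501-21115000 at 90.6% ± 3.92 and 76.9% ± 5.14 (SD, n = 4 each). Salt, GapmeR and time differ together between these groups and cannot be told apart.

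For the Dnmt3a and Tet3 GapmeRs against the scrambled one 330 of 14060 members were higher (2.35%, beside 2.34% of all bins) and 246 lower (1.75%, beside 2.07%), and the median differences were 0.0441 points over the members and 0.0463 over all bins. Limma on log ratios had 714 members at an unadjusted p below 0.05 and no call. In chr8:28165501-28166000 (3 sites) HS_SCR rats had 79.2, 77.8, 86.7 and 83.3% and HS_DT rats 92.3, 100, 97.0 and 94.9%, at 48 to 144 reads per rat. The difference was 14.3 points (adjusted p = 1.000). In chr3:143148501-143149000 HS_SCR rats had 94.9, 94.3, 95.8 and 96.8% and HS_DT rats 82.7, 85.9, 88.9 and 91.7%, a difference of -8.14 points (adjusted p = 1.000). In chr11:25082001-25082500 HS_SCR rats were close together (76.9% ± 0.757) and HS_DT rats higher and spread (85.8% ± 4.30). In chr1:211754501-211755000 HS_SCR rats had 89.9 to 92.4% and HS_DT rats 86.0% ± 0.896 (SD, n = 4).

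**Figure D5:**
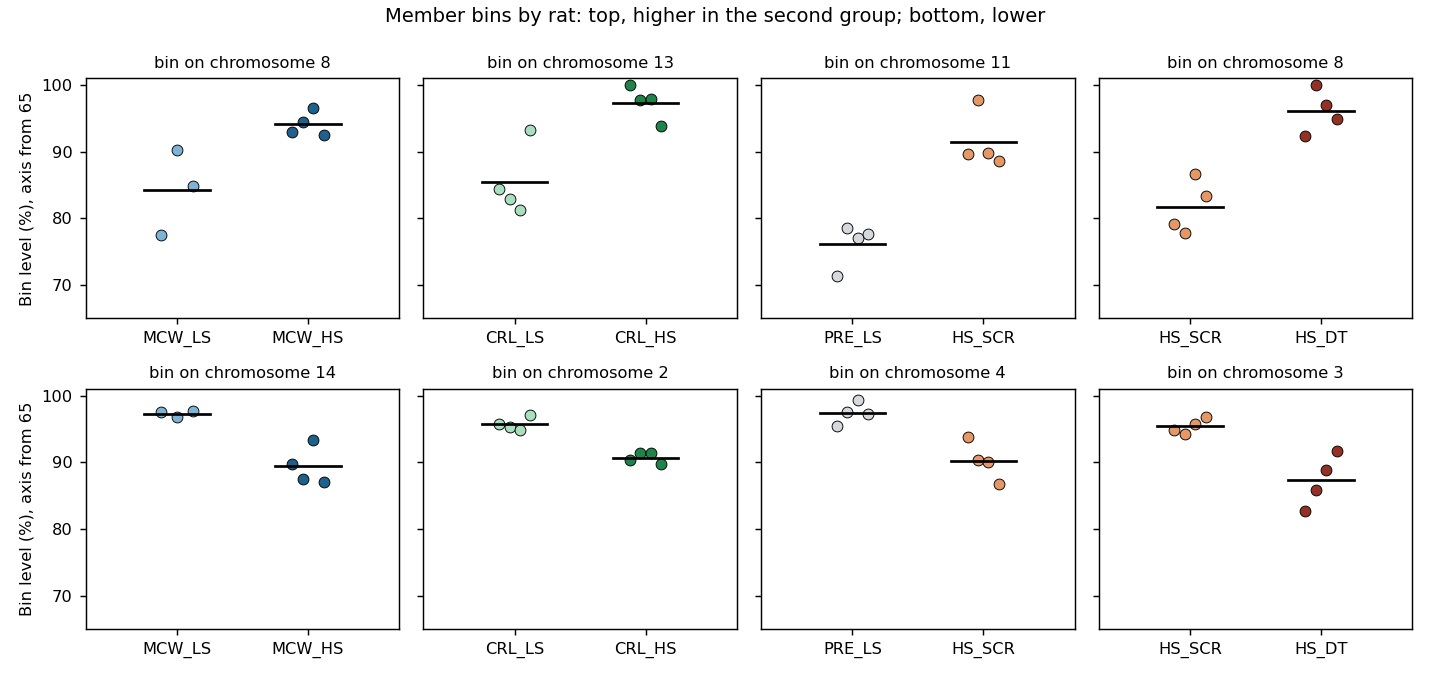
Level per rat (points, y axis in percent from 65) and group mean (line) of the member bin with the smallest p in each direction for 4 comparisons (columns), higher in the second of the groups plotted in the top panels and lower in the bottom panels. Groups do not overlap, as the rule for naming them required, and no bin passed the adjusted p; the chromosome 11 bin differs by 15.3 points and the chromosome 2 bin by -5.03 points.

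HS_DT and HS_SCR were each also compared with PRE_LS, so these comparisons share rats. For HS_DT against PRE_LS 262 of 14011 members were higher (1.87%, beside 2.60% of all bins) and 309 lower (2.21%, beside 2.61%). The median differences were -0.0647 points over the members and -0.0110 over all bins, and limma on log ratios had 753 members at an unadjusted p below 0.05 and no call. In chr9:107541501-107542000 PRE_LS rats had 85.1, 82.8, 86.1 and 84.3% and HS_DT rats 91.2, 92.1, 96.0 and 94.8%, a difference of 8.92 points (adjusted p = 0.710). In chr2:208120001-208120500 (6 sites) PRE_LS rats had 94.4, 88.9, 92.3 and 93.6% and HS_DT rats 82.6, 84.1, 75.4 and 74.1%, a difference of -13.3 points (adjusted p = 0.809). The bin chr9:37415501-37416000 was the one of the 4 with the most sites, 9, at 86.8% ± 1.78 and 92.1% ± 0.781 in PRE_LS and HS_DT. Its sites 37415536 and 37415538 had 2.38 and 3.31% at 12 to 46 reads per rat. Its other sites had 92.9 to 99.9% at 68 to 110 reads. A bin level pools the reads of its sites, so it also moves with the share of reads on such low sites. The part of this in the difference was not tested. The bin chr16:53720501-53721000 had 93.4% ± 1.63 and 83.6% ± 1.63 (SD, n = 4 each).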

How the data were processed

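RRBS counts of 27 libraries, 1 per rat, in 7 groups were analysed from 2 deposited tables. Each holds methylated (C) and unmethylated (T) read counts per CpG and rat, per the file headers. Trim Galore 0.2.5 and the build rn5 stand in the submitters' processing notes. The aligner, the caller and any removal of PCR duplicates are not stated there, and depth bounds counting error only. Columns were matched to rats by animal number. A mark (RP) stands on another MCW_LS rat in the titles than in the columns.

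The members, classes and tests were chosen with earlier results of these data known. Each 500 bp bin with 3 or more common sites and a pooled level of 5 to 95% over the compared rats was tested, X included, in each table separately. The fit was a quasi-binomial logistic regression with dispersion moderated by squeezeVar of limma 3.58.1 and held at 1 or more. The two-sided F test on the deviance was adjusted by Benjamini-Hochberg over all bins tested. Mean levels over members got no test. The text names, per comparison, up to 2 members per direction with the smallest p and no overlap of groups, and 3 each nearest the line, in the longest runs (ties by position), of largest SD, of most sites, with the lowest single site and with the largest difference between tables. Alternatives were 20 reads per site, a level over 90%, more than 10 bins of isolation, bins shifted by 250 bp, copied bins left out, read weights, limma on log2((C + 0.5)/(T + 0.5)), no level filter, 1 dispersion for all groups, blocks and each rat left out. Leaving out outer sites was added after the data were seen. Gene context was not analysed here. The software was R 4.3.3, Python 3.11.15, pandas 2.3.3, numpy 2.4.6 and matplotlib 3.10.9.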

Additional observations from a re-analysis of the deposited data

Results flagged for a closer look

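In groups of 4 rats a rat was set apart where its gap to the nearest other rat, divided by the range of the group, was above Dixon's 95% critical value, which chance gives in about 1 in 20 groups. This was met in 11 of 171 groups (6.43%), among levels over all members, over their outer and interior sites, and at the named bins. Many named bins were picked by their own levels and some share reads, so the rate of 1 in 20 need not hold for them. At the outer sites CRL_HS replicate 3 had 72.6%, and the other 3 rats had 72.3%. At chr10:48374001-48374500 CRL_HS replicate 3 had 100% and the others 97.0 to 97.4%. At chr15:104588001-104588500 MCW_HS replicate 1 had 83.6% and the others 85.8 to 86.3%. At chr11:74450501-74451000 HS_SCR replicate 2 had 97.8% and the others 88.6 to 89.8%. HS_DT replicate 3 had 91.0% at chr9:37415501-37416000, below the others, and 90.8% at chr1:89718501-89719000, above the others, the lowest of which had 84.4%. CRL_HS replicate 4 had 96.0% at chr16:62437001-62437500 and at chr16:62438001-62438500, whose reads are the same, and the others had at most 92.8%. At chr5:72522501-72523000 PRE_LS replicate 4 had 80.4% and the others at least 89.0%. At chr6:131628501-131629000 MCW_HS replicate 2 had 64.1% and the others 61.8 to 61.9%. At chr8:116956001-116956500 PRE_LS replicate 1 had 88.0% and the others 85.2 to 85.7%.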

How the results depend on the processing

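No member was called in any of the 158 fits, the alternatives and each rat left out included; the smallest adjusted p of a member over these was 0.0926. The 28 named bins were chosen for groups that do not overlap, which fixes their direction when 1 rat is left out. The 7 mean differences moved by less than 1 SD of a rat: they were -0.377 to 0.258 points with 1 rat left out and -0.330 to 0.105 under the other alternatives. Leaving out 1 rat turned the sign in 5 of the 7, with the values given in the report, and members over 90% turned CRL_HS minus CRL_LS to -0.182, MCW_LS minus CRL_LS to 0.105 and HS_DT minus HS_SCR to -0.00160. CRL_HS minus CRL_LS was also negative with 20 reads per site (-0.0357), read weights (-0.0338) and outer sites left out (-0.0268). The number of members fell to 2572 at a level over 90%. The share of members with a site under 50% was 58.1% with 20 reads per site and 5.99% at a level over 90%. The median dispersion, 1.51, was 1.69 with 20 reads per site, 2.33 at a level over 90%, 1.53 in shifted bins and 1.52 without copied bins; the cause was not tested. Same replicate numbers share no more than a number (correlations of deviations over members -0.0600 to 0.0412). With the replicate block, 0 members were called in each of the 8 tests, and those at an unadjusted p below 0.05 went from 118 to 88 for MCW against CRL on low salt and from 581 to 517 for HS_SCR against PRE_LS. One dispersion for all groups was not run for the interaction, which already uses it. The first table gives values for 4215 members; the cause was not tested.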
